A study of Homo sapiens with 15 samples.

Results

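RNA bound by RNA polymerase II (RNAPII) was profiled by PAR-CLIP with a pair of photoreactive nucleosides, 4-thiouridine (4SU) in 1 library and 6-thioguanosine (6SG) in the other, and these 2 of the 15 samples of the series are compared here. Both libraries were made from HEK293T T-REx cells, an established human embryonic kidney line, without a transgene, with the same antibody against the C-terminal domain of RNAPII. The nucleoside was given overnight at 100 uM, and light of 365 nm (0.15 J/cm2) crosslinked 300M cells (M, 1e6) per library. For scale, the 2 PHC1 PAR-CLIP libraries, made with 4SU from cells of the same line carrying a PHC1 transgene and recovered on streptavidin beads, and the 2 nuclear RNA-seq libraries were used. Each nucleoside had 1 library, so the nucleoside, the culture and the library cannot be told apart, and every comparison below is a description without a test.

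RNAPII transcribes protein-coding genes and many noncoding RNAs, and its C-terminal domain travels with the nascent transcript as a platform for capping, splicing and 3′ end factors. In PAR-CLIP a thio-nucleoside built into new RNA is crosslinked by long-wave light to the protein in contact, and the bound RNA fragments are sequenced. 4SU enters RNA in place of uridine and 6SG in place of guanosine, so the former reads contacts at U and the latter contacts at G. The lysates of both libraries were digested with RNase T1, an enzyme that cuts RNA after G.

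The deposited lists gave each cluster, a run of bases covered by reads, with its strand and mean read coverage per base. The 4SU list held 667937 clusters and the 6SG list 45259, a 14.8-fold difference in number. Coverage summed over all bases of all clusters differed less, by 10.1-fold, because the 6SG clusters were individually deeper and longer. The median cluster had a mean coverage of 19.2 reads per base with 4SU and 30.0 with 6SG, and a median length of 34 and 39 bases. Its summed coverage (coverage times length) was 650 with 4SU and 1089 with 6SG, while the lowest summed coverage listed was nearly the same, 68 and 77. The interquartile range of summed coverage was 396 to 1353 with 4SU and 662 to 1930 with 6SG, so the ranges overlapped. In the nuclear RNA the 5 measured markers of kidney and neuronal-type HEK293 cells summed to 204 counts per 1e6 (CPM) in each replicate, against at most 1.69 for any list of hepatocyte, blood, fibroblast, keratinocyte or muscle markers. NEFL (141 and 142 CPM in replicates 1 and 2) and INA (51.6 and 49.3) made up most of that sum. NEFM, of the same list, was at 0.381 and 0.121. The neuronal intermediate filament genes NEFL and INA, which HEK293 cells are known to express, had 6SG clusters, while PAX2, LHX1 and NEFM had 4SU clusters and were listed at 0 with 6SG. COL1A1, a fibroblast collagen, had 1 cluster with 6SG and 3 with 4SU, and ACTA1, a muscle actin, had 7 clusters with 4SU and was listed at 0 with 6SG.

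Printed first are the transcript starts that carried a cluster of only 1 nucleoside, because the letters U and G are what the nucleosides replace. Among clusters on the gene's strand within 50 bases of a region start where the other library had none, the 4 of highest summed coverage in each library, at most 100 bases long, were taken. For each gene the first 30 bases of the RefSeq transcript start (GRCh38.p14) are given 5′ to 3′ as DNA, with G and T in capitals. The start in that build was not aligned to the hg19 region start, so the cluster need not lie on these bases. 6SG clusters alone were found at KLHL20, WDR75, E2F2 and ATP6V0B, and 4SU clusters alone at WDR74, NUFIP2, TMEM131 and PGP.
KLHL20 (6SG): aTccTGccTGcGTTaGcGGcGGTGGaGGaG
WDR75 (6SG): aTTccGcTacTGcGcaaaGaTGGTGGaGGa
E2F2 (6SG): aGaGaaaGacTcaaGGacTaGaGaGcGaGc
ATP6V0B (6SG): aGacTGcGGGacGGacGGTGGacGcTGGGa
WDR74 (4SU): GTcTGccTccaGGcTTTGTcaTGGcGGcTG
NUFIP2 (4SU): aGaTaTacTGaGTGaGcccTGaGaaGcaGT
TMEM131 (4SU): GcTcGcGGGccGTGcccGTTTccaGTaTGG
PGP (4SU): GaGGGcGccGcGGcGGGcGGcTGcGaGGaG

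The 8 printed starts did not separate by letter. In the order printed, cluster midpoints lay 49, 48, 2 and 36 bases from the region start with 6SG. With 4SU they lay at 29, 48, 13 and 38 bases. Several were thus past the 30 printed bases, so the letters cannot tell what the clusters cover. The 4 starts with 6SG clusters held 13, 10, 10 and 15 G and 6, 6, 2 and 3 T, and the 4 starts with 4SU clusters held 10, 9, 11 and 18 G and 9, 6, 7 and 1 T. PGP, a phosphoglycolate phosphatase, had a 4SU cluster at chromosome 16, bases 2264772 to 2264797, minus strand, with a mean coverage of 737. Its printed start has 1 T, but the midpoint of the cluster lay past the printed bases. E2F2, a cell cycle transcription factor, had a 6SG cluster at chromosome 1, bases 23857694 to 23857726, minus strand, with a mean coverage of 111. Over all starts with a cluster within 100 bases, the first 50 transcribed bases held 15.0% T ± 8.23 (SD) in the 90 regions with 6SG alone, 16.7% ± 7.22 in the 289 with both and 18.2% ± 7.61 in the 2744 with 4SU alone. G made up 38.5% ± 10.4, 39.0% ± 9.16 and 37.0% ± 9.31 of the same bases. The 7846 regions with neither held 18.1% T ± 8.45 and 32.8% G ± 10.2. The means for T were thus lowest where 6SG stood alone, by less than 1 SD of single regions, and G was above the regions with neither in each of the 3 classes. Chromosome 8 was left out of these counts.

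Sharing between the libraries was strand-specific. A cluster counted as shared if it had at least 1 base in common with a cluster of the other library on the same strand. Of the 45259 6SG clusters, 21379 (47.2%, exact 95% binomial interval 46.8 to 47.7%) met a 4SU cluster, and 489 (1.08%) met one on the opposite strand. In the other direction 23775 of the 667937 4SU clusters (3.56%, 3.52 to 3.60%) met a 6SG cluster. Intervals cover counting error only and say nothing of replicate spread. PHC1, a different protein read with 4SU, met 40.8% of the 6SG clusters in replicate 1 and 36.9% in replicate 2, and met 34.6% and 31.4% of the 4SU clusters. The PHC1 replicates met each other at 66.4% and 70.2%.

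Depth of the single cluster went with sharing. In the shallowest decile of 6SG clusters by summed coverage 30.9% met a 4SU cluster, and in the deepest decile 80.8% did. In the deepest decile the share met by PHC1 replicate 1 was as high, 81.4%. The deepest decile of 4SU clusters, by contrast, was met by 6SG in 8.60% of cases and by PHC1 replicate 1 in 83.8%, and in the shallowest decile these shares were 1.16% and 14.1%. Most of the deepest 4SU clusters were thus without a 6SG cluster. The PHC1 list of replicate 1 held 696186 clusters against 45259 with 6SG, so these shares are not on an equal footing.

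**Figure D1:**
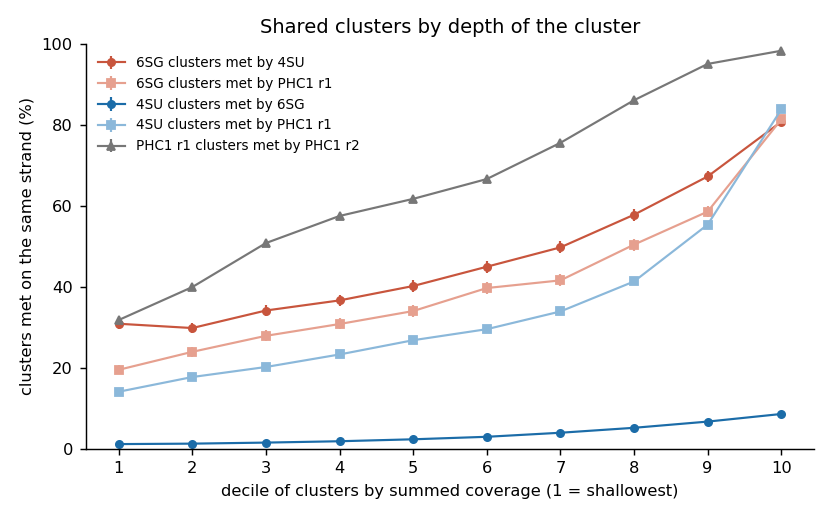
Share of clusters (%, vertical axis) that shared a base on the same strand with the named other library, by decile of the cluster's own summed coverage (horizontal axis); points are shares and bars exact 95% intervals, mostly smaller than the points. 6SG clusters went from 30.9% to 80.8% met by 4SU, and 4SU clusters from 1.16% to 8.60% met by 6SG.

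Matching the number of clusters lowered the share of 6SG clusters met and raised that of 4SU clusters. When only the 45259 4SU clusters of highest summed coverage were kept, 8.49% of 6SG clusters met one (8.24 to 8.75%) and 8.76% of these 4SU clusters met a 6SG cluster (8.50 to 9.02%). With each list cut to that same number, 34.1% of the 4SU clusters met PHC1 replicate 1 and 18.97% met replicate 2. The 6SG clusters met 10.7% and 6.74%, and 64.2% of the replicate 1 PHC1 clusters met replicate 2. At matched number the 4SU RNAPII clusters thus met the PHC1 clusters more often than they met the 6SG clusters of the same protein. In the other direction 18.3% of the PHC1 replicate 1 clusters and 13.5% of replicate 2 met a 4SU cluster. The cut kept the whole 6SG list but only the deepest clusters of the other lists, so these shares are not on an equal footing. Across gene regions, with lists cut alike, the Spearman correlation with 4SU was 0.49 for 6SG and 0.44 and 0.35 for PHC1. Whether the nucleoside accounts for the shares was not tested.

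Many 6SG clusters that met no 4SU cluster lay close to one. Within 100 bases of a 4SU cluster on the same strand lay 62.6% of 6SG clusters, and within 1000 bases 81.1%. On the opposite strand these shares were 2.85% and 13.1%. Where clusters did meet, their midpoints lay a median of 11 bases apart (quartiles 5 and 20). Across the 21379 meeting pairs the mean coverages had a Spearman correlation of 0.51, given as a description since pairs share genes and regions.

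**Figure D2:**
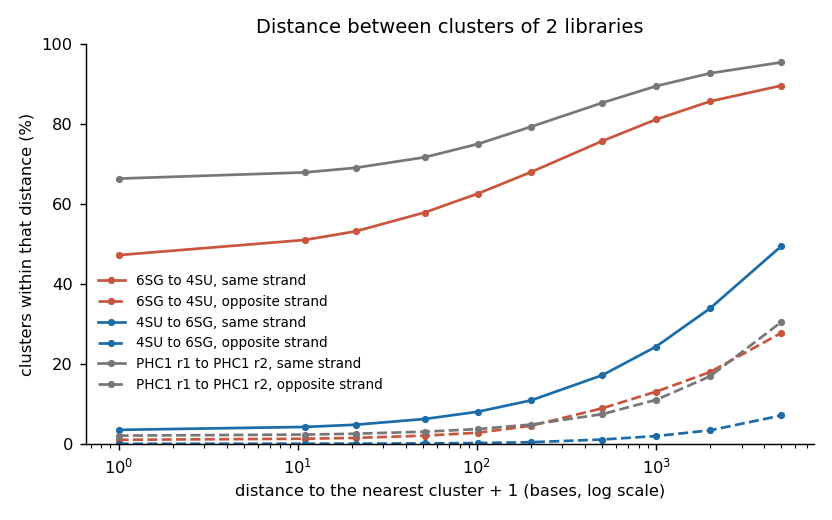
Share of clusters (%, vertical axis) whose nearest cluster in the other library lay within the distance on the horizontal axis (bases plus 1, log scale), on the same strand (solid) and on the opposite strand (dashed). The same-strand curve of 6SG to 4SU rises from 47.2% at 0 bases to 81.1% at 1000 bases, and the opposite-strand curve from 1.08% to 13.1%.

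By what they met, the 6SG clusters fell into 4 classes. 12711 (28.1%) met both 4SU and a PHC1 library, 8668 (19.2%) met 4SU alone, 8178 (18.1%) met PHC1 alone and 15702 (34.7%) met none of the 3 other libraries. Median mean coverage was 50.0, 31.0, 27.0 and 22.3 reads per base in that order. The class that met none held 15.6% of the summed 6SG coverage, and 46.1% of it lay in gene regions against 58.6% of the class that met both.

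How far depth alone accounts for the smaller 6SG list depended on the floor assumed. If each 4SU summed coverage was multiplied by the ratio of the libraries' totals and clusters under the lowest 6SG value (77) were dropped, 281628 4SU clusters remained (42.2%), 6.22 times the 6SG number. Of those, 5.97% met a 6SG cluster. With the floor at the first percentile of 6SG (220) 99963 clusters remained, 2.21 times the 6SG number, and with the floor at the 10th percentile (448) 41910 remained, 0.926 times. The share met by 6SG was 8.15% and 8.82% under these floors, and 9.85% with the floor at the median of 6SG. The reads and the threshold of the cluster caller are not given in the sources used here, so the true floor of each list is not known.

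The 5 clusters of highest summed coverage in each library mostly lay outside the gene regions. With 6SG the deepest lay at chromosome 6, bases 52860705 to 52860750, plus strand, with a mean coverage of 126813 and 5.23% of all 6SG coverage. In RefSeq's gene order RN7SK, the 7SK RNA that holds the kinase P-TEFb inactive, lies between the same neighbours, GSTA4 and CILK1, but the position itself was not checked in that build. The 4SU library had a cluster there with a mean coverage of 29647, lower in spite of its 10.1-fold larger total. The next in order lay at chromosome 4, bases 70296666 to 70296682, minus strand (mean coverage 72451 with 6SG and 24546 with 4SU), and at chromosome 20, bases 26190226 to 26190285, minus strand (16203 and 26664). The fourth was a 12-base cluster in the region of HFM1, a meiotic helicase gene, at chromosome 1, bases 91852893 to 91852904, minus strand, with a mean coverage of 78504 and no 4SU cluster. The fifth lay at chromosome 17, bases 19091523 to 19091618, plus strand (6909 and 8361), where RefSeq's order has SNORD3A and SNORD3C, U3 small nucleolar RNA genes, between the neighbours GRAPL and RNF112. So 4 of these 5 sites had a 4SU cluster too.

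None of the 5 deepest 4SU clusters met a 6SG cluster. The first and second lay between RPLP0 and SIRT4 on chromosome 12, at bases 120729558 to 120729611 and 120730893 to 120730944, minus strand, with mean coverages of 318372 and 288015. They held 1.52% and 1.32% of all 4SU coverage. Both had PHC1 clusters in each replicate, at 4043 and 9050 for the first and 7496 and 23771 for the second. The third lay at chromosome 11, bases 62609088 to 62609129, minus strand (60087), at the start of the region of WDR74, a ribosome assembly gene. RefSeq's order has RNU2-2, a U2 small nuclear RNA gene, and several SNORD genes between the same neighbours, STX5 and SLC3A2. The other two lay between EAPP and SNX6 on chromosome 14 and between ESPNP and MFAP2 on chromosome 1, with mean coverages of 12206 and 13201 and PHC1 clusters in both replicates. RNU1-2 and RNU1-4, U1 small nuclear RNA genes, stand between the latter neighbours in RefSeq's order.

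Coverage of both strands was next summed over the 14432 non-overlapping gene regions of the deposited promoter table, which carry no strand and no exon or intron. 56.0% of 4SU and 52.8% of 6SG clusters had their midpoint in a region. Clusters of both libraries were found in 6387 regions, of 4SU alone in 4204, of 6SG alone in 162 and of neither in 3679. Regions with 4SU clusters and none with 6SG were thus 39.7% of all 10591 regions with 4SU clusters, and regions with 6SG clusters and none with 4SU were 2.47% of the 6549 with 6SG clusters. The regions with 4SU alone had a median of 5 4SU clusters against 36 in the regions with both. Gene regions held 6.38 6SG clusters per 100 of 4SU, and if every region had followed that ratio with counting error alone, 38.7% of the regions would have had no 6SG cluster. In the decile of regions with most 4SU clusters (median 127) 0.661% had none, against 0.0841% at the common ratio, and in the decile with fewest 89.7% had none against 93.8%. Loss of whole genes from the 6SG list was therefore close in total number to what the smaller list gives. That total joined fewer zeros than due in deciles 1 to 4 with more than due in deciles 5 to 10. Decile 2 had 80.0% against 85.8% due, decile 5 (median 15 4SU clusters) 42.0% against 38.3%, and decile 7 (median 33) 19.6% against 12.7%.

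At the common ratio 2639 regions were due at least 3 6SG clusters, and 93 of them (3.52%) had none, against 34.9 by counting error alone. KCNB2, a voltage-gated potassium channel, had the most 4SU clusters among them, 129, and none with 6SG. IBTK, an inhibitor of Bruton's tyrosine kinase (Entrez 25998, chromosome 6, bases 82879956 to 82957448), had 116 4SU clusters and none with 6SG. A count of 0 allows up to 3 clusters, so the cluster number was at least 2.75-fold lower than the 8.24 due for KCNB2 and at least 2.47-fold lower than the 7.41 due for IBTK. LRP2, the endocytic receptor megalin of kidney tubules, had 115 and 0 clusters (at least 2.45-fold lower), EPHA7, an ephrin receptor, 114 and 0 (at least 2.43-fold), and FBXW11, an F-box ubiquitin ligase subunit, 104 and 0 (at least 2.21-fold). HS3ST3A1, a heparan sulfate sulfotransferase (102 and 0), CLOCK, the circadian transcription factor (88 and 0), and FLNA, the actin crosslinker filamin A (83 and 0), were likewise listed at 0. CADM1, a cell adhesion molecule (Entrez 23705), had 232 4SU clusters and 1 6SG cluster, and SDK1, another adhesion molecule, 408 and 8. Relative to all regions their log2 cluster ratios were -3.89 (counting interval -9.20 to -1.40) and -1.70 (-2.92 to -0.71). These genes were picked after their values were seen, for having many 4SU and few 6SG clusters. All 10 had PHC1 clusters, between 5 and 458 per replicate. The clusters due take no account of region length. The decile of longest regions (median 223 kb) had a log2 cluster ratio of -0.43 relative to all regions. At that ratio the shortfall would be smaller for KCNB2 (401 kb), LRP2 (236 kb), CADM1 (335 kb) and SDK1 (968 kb). How much of the losses goes with length was not tested.

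Per-gene values were then put on one scale, as parts per 1e6 (ppm) of the library's coverage in regions, and compared as log2(value + 1), 6SG minus 4SU, in the 8012 regions with a mean of at least 5 ppm. The median difference was -0.45 (quartiles -2.36 and 0.73). At least 4-fold higher with 6SG were 731 regions (9.12%), and at least 4-fold lower 2189 (27.3%). Of the lower regions 1551 were listed at 0 with 6SG, and a region that passed the filter through its high library alone had to differ. Of the higher regions 369 had a single 6SG cluster and 118 were listed at 0 with 4SU. Across the 10753 regions with a cluster in either library, Spearman's correlation was 0.73 for coverage and 0.73 for the number of clusters, against 0.97 between the PHC1 replicates and 0.85 between 4SU and PHC1 replicate 1. Genes are not independent replicates, and these values are descriptive. With each list cut to the number of 6SG clusters, the correlation was 0.49 between 4SU and 6SG, 0.44 and 0.35 between 4SU and the PHC1 replicates, and 0.84 between the PHC1 replicates, so the order of 6SG and PHC1 against 4SU turned.

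**Figure D3:**
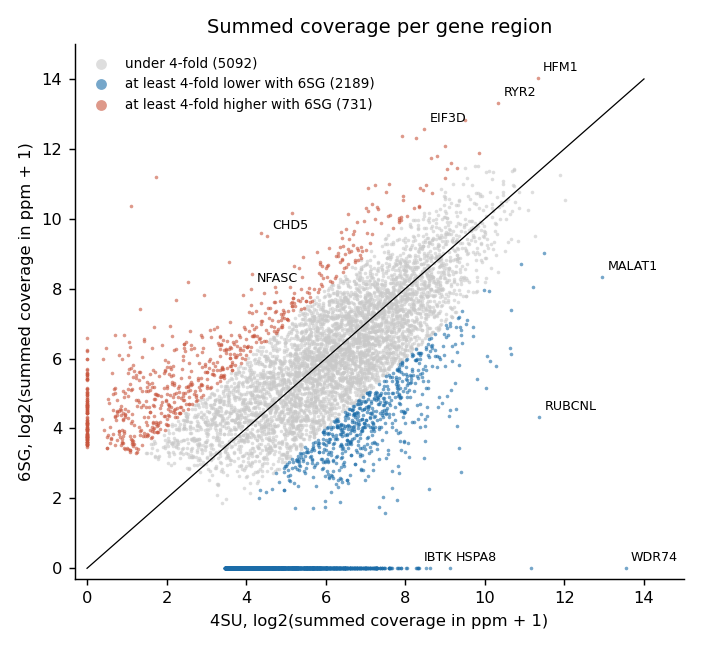
Summed coverage (ppm) of each of the 8012 gene regions as log2(value + 1), 4SU on the horizontal and 6SG on the vertical axis; the line marks equal values, red and blue points differ at least 4-fold. The row of blue points at 0 holds the 1551 regions with no 6SG cluster, and MALAT1 and WDR74 lie far to the right.

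The 6 highest regions of each library come next. WDR74 (Entrez 54663, chromosome 11, bases 62600383 to 62609281) had the highest 4SU value, 11886 ppm from 26 clusters, and was listed at 0 with 6SG. This value takes in a plus-strand cluster, opposite to the gene, at bases 62609130 to 62609141 with a mean coverage of 155934. MALAT1, an abundant nuclear noncoding RNA (Entrez 378938, chromosome 11, bases 65265233 to 65273939), had 7905 with 4SU and 320 with 6SG, a log2 difference of -4.62. By number it had 98 and 8 clusters, a log2 ratio of 0.35 relative to all regions (-0.90 to 1.39), so the direction differed between coverage and number. The proliferation genes MKI67 (4123 and 1470) and CENPF (3772 and 2449), and HNRNPU, a nuclear scaffold RNA-binding protein (2893 and 522), were also among the highest with 4SU. RUBCNL, an autophagy gene, completed the 4SU list with 2627 ppm from 3 clusters, of which the largest held 72.2%, and had 19.1 with 6SG.

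With 6SG the highest regions described here each drew most of their coverage from 1 cluster. HFM1 had 16683 ppm with 6SG from its only cluster and 2573 with 4SU from 35, of which the largest held 59.2%. Its nuclear RNA differed between the replicates, at 2107 CPM in replicate 1 and 264 in replicate 2. RYR2, the ryanodine receptor calcium channel, had 10093 and 1284, with 72.6% of the 6SG value in 1 of 18 clusters. EIF3D, a translation initiation factor subunit (6043 and 356), HMGB2, a chromatin protein (5324 and 239), and NOTCH2, a signalling receptor (5117 and 309), followed. Their largest cluster held 88.3%, 88.6% and 76.2% of the 6SG value. RYR2 had as many clusters as the common ratio gives, with a log2 ratio of 0.02 (-0.76 to 0.71).

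By the rule for single genes (at least 3 clusters, none with 50% of the coverage, the same sign on cluster number) the 12 largest differences were those of CDK15, MKX, CHD5, AKNA, FCGBP, CLDN19, SELPLG, NOXO1, BSN, NFASC, RRP12 and TRIB3. CHD5, a chromatin remodeller of neurons (Entrez 26038, chromosome 1, bases 6161847 to 6240194), had 22.1 ppm with 4SU and 722 with 6SG, from 11 and 12 clusters, a log2 cluster ratio of 4.09 (2.79 to 5.42). NFASC, the axonal adhesion molecule neurofascin (Entrez 23114, chromosome 1, bases 204797782 to 204991950), had 16.5 and 253 from 16 and 11 clusters, a log2 cluster ratio of 3.43 (2.18 to 4.63). Both genes were picked for a large difference in coverage of the same sign as that in cluster number. The intervals take no account of that selection, so the cluster ratios are no separate support. AKNA, a centrosomal AT-hook protein, had 6.65 and 225 from 10 and 6 clusters, and CDK15, a cyclin-dependent kinase, 1.53 and 171 from 2 and 4. Nuclear RNA of CHD5, NFASC, AKNA and CDK15 was at 5.23, 5.11, 9.35 and 1.04 CPM in replicate 1 and 5.98, 5.26, 9.81 and 1.25 in replicate 2. CDK15, MKX, FCGBP, CLDN19, SELPLG, NOXO1 and BSN were under 5 ppm with 4SU and passed the filter through 6SG alone, so their low 4SU values follow from the selection. RRP12, a ribosome biogenesis factor with 237 and 230 CPM of RNA, was at 134 with 4SU and 1875 with 6SG from 58 and 14 clusters. TRIB3, a stress-induced pseudokinase with 59.9 and 53.4 CPM of RNA, had 5.15 and 82.0 from 7 and 4 clusters.

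The 12 largest differences in the other direction were all listed at 0 with 6SG. They were WDR74, HSPA8, UBB, IBTK, TAF7, RPAP3, RPS6, RPL26, RAD51AP1, TMEM107, ESF1 and FAM204A. HSPA8, the constitutive HSC70 chaperone, had 559 ppm from 33 clusters with 4SU, UBB, a polyubiquitin gene, 367 from 15, and TAF7, a TFIID subunit, 320 from 30. RPAP3, a chaperone cofactor of RNA polymerase assembly, had 317 from 60 clusters. At the common ratio HSPA8, UBB and TAF7 were due 2.11, 0.958 and 1.92 6SG clusters, fewer than the 3 that a count of 0 allows, so a loss in cluster number was not detectable at this depth.

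Position along the gene differed between the nucleosides. In the 7922 regions that could be oriented by the strand holding at least 80% of PHC1 coverage in both replicates, 97.8% of 4SU and 96.0% of 6SG clusters were on that strand. Of the sense clusters, 7.41% with 6SG (1516 of 20467, 7.05 to 7.77%) and 3.93% with 4SU (12774 of 325354, 3.86 to 3.99%) had their midpoint within 500 bases of the region start. In the PHC1 libraries the share was 1.51% and 1.09%. Within 100 bases the shares were 2.12% with 6SG and 1.21% with 4SU. Oriented by the RefSeq strand, which was the same in 5672 of 6306 regions with both (89.9%), the shares within 500 bases were 7.35% and 3.99%. The 45259 deepest 4SU clusters had fewer, 2.64%. The share was highest in the shallowest decile of clusters, 12.2% with 6SG and 5.39% with 4SU, against 6.16% and 2.75% in the deepest. With 4SU the fall was not steady, at 3.35% (3.16 to 3.55%) in decile 4 and 4.30% (4.09 to 4.53%) in decile 8. The lowest 6SG decile, at 5.47% (4.53 to 6.55%), was level with the highest 4SU decile. 6SG clusters that met a 4SU cluster and those that did not had nearly the same share within 500 bases, 7.60% and 7.17%. Within 100 bases the shares differed, at 2.47% (2.19 to 2.77%) and 1.69% (1.44 to 1.97%).

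**Figure D4:**
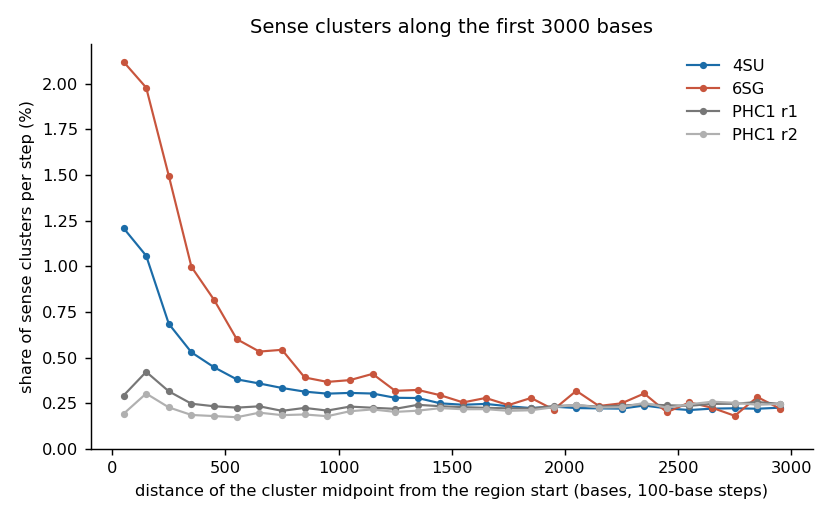
Share of each library's sense clusters (%, vertical axis) in steps of 100 bases from the region start (horizontal axis), for 4SU, 6SG and both PHC1 libraries. The 6SG line starts at 2.12% and the 4SU line at 1.21%, and the lines run together beyond about 2000 bases.

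Past the start the libraries were more alike. Dividing each region into deciles, the first decile held 14.5% of 6SG and 11.3% of 4SU sense clusters and the last decile 13.8% and 14.0%. Clusters of PHC1 replicate 1 leaned to the 5′ part, with 11.9% in the first decile, 11.5% in the second and 10.3% in the last. Among the deepest 4SU clusters the first decile held 7.48% and the last 13.1%.

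Gene length and RNA level went with the ratio of 6SG to 4SU clusters. Relative to all regions, the log2 cluster ratio was 0.46 (0.30 to 0.62) in the shortest decile (median 2.12 kb) and -0.43 (-0.47 to -0.38) in the longest (median 223 kb). Start clusters weigh more in short genes, but without the first 1000 bases the sense clusters still gave 0.45 (0.31 to 0.59) and -0.44 (-0.49 to -0.39) in deciles of the oriented regions. Within the first 1000 bases alone the shortest and longest decile were at -0.08 (-0.26 to 0.09) and 0.06 (-0.18 to 0.29), so there the length trend was not seen. By nuclear RNA of replicate 1 the ratio was 1.41 in the lowest decile (118 4SU and 20 6SG clusters, 0.65 to 2.10), 1.85 in the second, 1.30 in the third and -0.10 (-0.13 to -0.07) in the highest. In these bulk samples fewer cells with a transcript and less of it per cell cannot be told apart. Replicate 2 of the RNA gave 1.42, 1.75, 1.28 and -0.10 for the same deciles. Summed coverage followed RNA more closely with 4SU than with 6SG, with Spearman correlations across genes of 0.90 (13423 genes) and 0.70 (13376 genes) with RNA replicate 1. More genes were tied at 0 with 6SG, since 6549 regions had a 6SG cluster and 10591 a 4SU cluster. These correlations were not computed at matched cluster number, so the size of the list is not set apart from the nucleoside. Sorted by the RNAPII ChIP score at the promoter, the cluster ratio was 0.12 in both the lowest (0.01 to 0.24) and the highest decile (0.08 to 0.16) and -0.15 (-0.23 to -0.07) in the fifth, so it showed no steady trend with promoter occupancy.

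**Figure D5:**
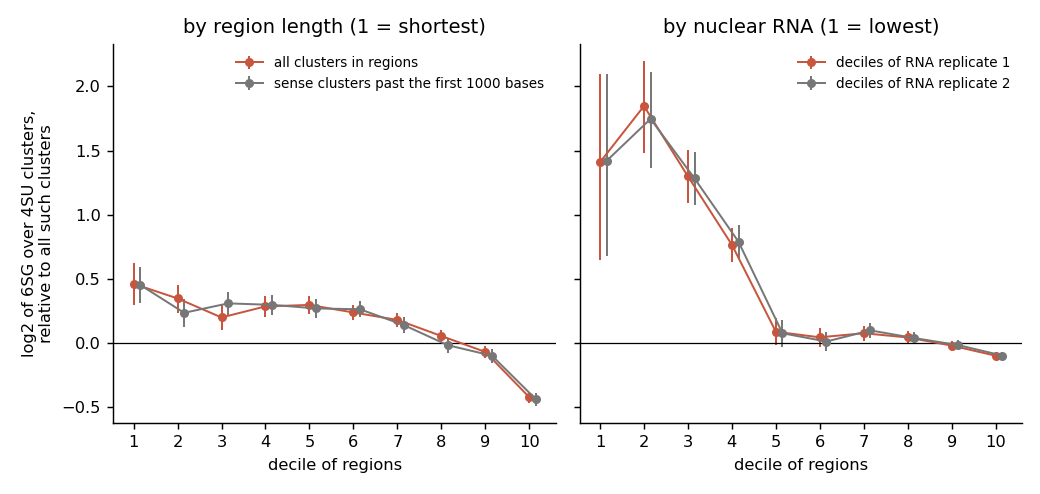
Log2 ratio of 6SG to 4SU cluster numbers relative to all clusters of the same kind (vertical axis; bars, exact 95% counting intervals) by decile of region length (left) and of nuclear RNA (right); second series are shifted sideways for legibility. The ratio falls from 0.46 to -0.43 with length and from 1.41 in the lowest to -0.10 in the highest RNA decile.

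Chromosomes differed in the same measure, taken over all clusters. Chromosomes 19 and 16, both gene-rich, were highest, with log2 ratios of 0.45 (0.40 to 0.50) and 0.42 (0.36 to 0.48), followed by 22 (0.24, 0.15 to 0.32) and 17 (0.14, 0.09 to 0.19). Chromosomes 13 and 18 were lowest, with -0.34 (-0.45 to -0.24) and -0.33 (-0.46 to -0.21). Chromosome 19 held 7.51% of 6SG clusters, 5.50% of 4SU clusters and 6.31% and 6.43% of PHC1 clusters. Long noncoding RNA genes as a class were close to the common ratio by cluster number (0.05, -0.13 to 0.22), and those named LINC were at 0.33 (0.01 to 0.64). By coverage 33 of the 159 compared long noncoding RNA regions were at least 4-fold higher with 6SG (20.8%, against 9.12% of all). At least 4-fold lower were 46 (28.9%, against 27.3%), and the median was -0.11 against -0.45. How many passed the filter through 6SG alone is not given here. Collagen and laminin genes were low, with 927 4SU and 22 6SG clusters in 40 regions (-1.43, -2.11 to -0.82).

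Gene groups were read against the background of 9.12% higher and 27.3% lower regions. The lists are small, and their medians include members listed at 0 with 6SG. Heat shock and chaperone genes had 1 of 14 compared members at least 4-fold higher and 8 lower, a median log2 difference of -4.62 against -0.45 over all. HSP90AA1, the inducible HSP90, had 1608 ppm with 4SU and 68.9 with 6SG, HSP90AB1, its constitutive partner, 619 and 22.6, and CCT2, a chaperonin subunit, 551 and 19.6. HSPA5, the endoplasmic reticulum chaperone BiP, had 194 and was listed at 0 with 6SG. By cluster number the list was near the common ratio, with 633 and 36 clusters and a log2 ratio of -0.17 (-0.69 to 0.32). Of the 8 lower members 5 were listed at 0 with 6SG.

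Ribosomal protein genes had 2 of 39 members higher and 17 lower, 9 of these listed at 0 with 6SG, and a median of -1.40. RPS6 (315 and 0 ppm), RPL26 (261 and 0) and RPL19 (372 and 19.6) were among the lower ones, while RPS15 (90.4 and 834) and RPL36 (124 and 974) were the 2 higher ones, with 79.9% and 98.8% of the 6SG value in 1 cluster. Their cluster ratio was 0.19 (-0.16 to 0.53). Mitochondrial ribosomal protein genes had 2 of 53 higher and 25 lower, 21 of these listed at 0 with 6SG. They had a median of -1.33 and a cluster ratio of -0.04 (-0.41 to 0.32). Genes of the respiratory chain had 1 of 32 higher, ATP5MC2 (46.7 and 236), an ATP synthase subunit, and 10 lower. Of the lower ones 7 were listed at 0 with 6SG, and NDUFS1 (107 and 9.55), a complex I subunit, was among the rest.

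Genes of transcription and splicing stayed nearer to the median. RNAPII subunits and factors had 2 of 30 higher and 5 lower, a median of -0.30 and a cluster ratio of 0.24 (-0.01 to 0.48). SUPT5H, the elongation factor SPT5, was at 565 with 4SU and 3121 with 6SG, from 99 and 19 clusters (log2 cluster ratio 1.59, 0.80 to 2.31). SUPT6H, the histone chaperone SPT6, was at 440 and 873, and MED13, a Mediator kinase module subunit, at 889 and 242. Splicing factors had 2 of 28 higher and 8 lower, and each of the 28 had clusters in both libraries. SNRNP70, the U1 70K protein, was at 349 and 1806 from 96 and 14 clusters and SRRM1, a splicing coactivator, at 924 and 3755, while SF3B1, a U2 particle subunit, was at 610 and 84.1 and SRSF1, an SR protein, at 744 and 137. Polycomb subunits had none of 21 higher and 4 lower, with EZH2 at 810 and 848 and SUZ12 at 645 and 945. Their median, 0.23, turned to -0.25 under another setting.

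The unfolded protein and integrated stress list had 381 4SU and 44 6SG clusters in 13 regions, a ratio of 0.86 (0.37 to 1.31), and its 13 compared members had 1 higher and 3 lower. ASNS, asparagine synthetase, was at 609 and 535 ppm from 101 and 15 clusters, SESN2, the leucine sensor sestrin 2, at 92.4 and 205 from 60 and 10, and PPP1R15A, the phosphatase subunit GADD34, at 106 and 281 from 15 and 3. CHAC1, a glutathione-degrading enzyme (21.6), and DNAJB9, a chaperone (15.6), were listed at 0 with 6SG. Its median of 0.36 turned to -1.24 when the largest cluster of each gene was left out. That setting takes more from 6SG, with its fewer clusters per gene, so it cannot decide the sign. Immediate early genes had 207 and 21 clusters, a ratio of 0.67 (-0.05 to 1.32), with EGR1 at 18.3 and 98.5, MYC at 131 and 320 and JUN at 138 and 281. Their median of 0.89 over 14 compared members (1 higher, 3 lower, all 3 listed at 0 with 6SG) likewise turned to -1.58 without the largest clusters. It also turned to -0.84 when only the minimum mean was lowered to 1 ppm, so its sign depended on the filter too.

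Developmental transcription factors had 3 of 22 higher, among them GATA3 (12.7 and 67.1) and ZIC2 (88.8 and 509), and 10 lower, of which 9 were listed at 0 with 6SG, such as GATA4 (35.4 with 4SU) and TBX3 (38.7). HOX genes had none of 16 higher and 5 lower, all 5 listed at 0 with 6SG. HOXD11 (185 and 86.5) and HOXC8 (92.4 and 88.5) lay under the 4-fold limit. Long neuronal and adhesion genes had 2468 and 129 clusters, a ratio of -0.29 (-0.56 to -0.03), with none of 15 higher and 2 lower. FHIT was at 777 and 979 and WWOX at 448 and 598, both fragile-site genes, while AUTS2, a neurodevelopmental gene, was at 708 and 320 from 550 and 16 clusters. Genes of purine and guanine metabolism had none of 21 higher and 6 lower, 5 of these listed at 0 with 6SG, with a cluster ratio of 0.10 (-0.29 to 0.47). Those of pyrimidine and uridine metabolism had 1 of 14 higher and 3 lower, 2 of these listed at 0, with a ratio of 0.29 (-0.19 to 0.73). GART and CAD, multifunctional enzymes of the purine and the pyrimidine route, were at 463 and 705 and at 222 and 420. p53 targets had none of 15 higher and 5 lower, all 5 listed at 0 with 6SG, with MDM2, the p53 ubiquitin ligase, at 638 and 564. The proteasome had none of 20 higher and 4 lower, with PSMC4 at 350 and 650. Housekeeping genes had none of 14 higher and 5 lower, with GAPDH at 194 and 187 and ACTB at 137 and 15.4. Of the nuclear noncoding RNAs, MALAT1 was 1 of 4 lower, while NEAT1, the paraspeckle scaffold, was at 487 and 658. Of the other lists, replication histones had 2 of 3 lower, and the compared snoRNA host gene, SNHG10 (34.2 with 4SU), was listed at 0 with 6SG.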

How the data were processed

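Processed files were used as deposited. For each PAR-CLIP cluster on hg19 the authors gave a signal, its average read coverage, unscaled. The submitters' processing notes name Bowtie 0.12.7, SAMtools 0.1.19 and R 3.1.0. The cluster caller, its filters and duplicate handling are not given in the sources used here. Nuclear RNA was deposited as counts per gene, and ChIP values as a score per promoter by the authors, used here only to sort regions; 6 further value columns were not used. Symbols came from RefSeq by Entrez number (14378 of 14432). Coverage times length was summed per region by the cluster midpoint, scaled to parts per 1e6 (ppm) with TMM factors computed from both RNAPII libraries (0.982 and 1.02), and compared as log2(value + 1) with a 4-fold limit and a minimum mean of 5 ppm. With 1 library each no test was made. Intervals are exact 95% counting intervals. The steps were tested on simulated data (Python 3.11.15, numpy 2.4.6, pandas 2.3.3, scipy 1.17.1). Single genes were named by fixed rules: the 12 largest differences each way with at least 3 clusters in the higher library and under 50% of its coverage in 1 cluster, the 6 highest genes and 5 deepest clusters per library, and up to 8 members of each list. 1 gene that these rules name is not reported here. Members and lists were chosen with earlier results of these data known.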

Additional observations from a re-analysis of the deposited data

How the results depend on the processing

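No paired analysis was possible because the libraries share replicate number 1 alone and each nucleoside has 1 library. Leaving out a replicate was not possible for the same reason. The share of 6SG clusters met by 4SU (47.2%) was 41.7% when 50% of the shorter cluster had to be shared, 1.08% on the opposite strand and 8.49% with as many 4SU clusters as 6SG. The share of 4SU clusters met by 6SG (3.56%) was 2.93%, 0.0758% and 8.76% under the same settings, and 3.69% with a mean coverage of at least 10. The 4SU clusters left at the 6SG depth (281628) were 263933 without the 10 deepest clusters of each library, and 99963, 41910 and 10128 with floors at the first and 10th percentile and the median of 6SG. Regions higher with 6SG (731) were 472 with a pseudocount of 5, 346 without the largest cluster of each gene and 2 by cluster number. Regions lower with 6SG (2189) were 6 by cluster number, and 3228 without the largest clusters. Without those clusters 9.68% of the calls were higher, against 25.0% in the reported values and 33.8% with the 4SU clusters left at the 6SG depth. Of the 731 higher regions 369 had a single 6SG cluster and fall to 0 without it. A shift downward was thus built into leaving out the largest clusters. With clusters on the RefSeq strand of the gene alone, 495 of 6238 compared regions were higher and 1854 lower. Of these, 393 and 1634 were among the reported ones. The counts by cluster number say nothing of stability, because with 1 per 10000 added most regions have too few clusters to reach 4-fold. Regions with clusters in both libraries (6387) were 3025 when 3 clusters were needed. Spearman's correlation of 0.73 was 0.66 with the 4SU clusters left at the 6SG depth and 0.49 with as many clusters in each library. List medians changed sign under 1 or more settings for immediate early, unfolded protein, Polycomb, RNAPII, pyrimidine and long neuronal genes. The floors, the matched correlation and the RefSeq strand were chosen after seeing the data. The cause of these shifts was not tested. Summed coverage is not a read count, and depth in reads is not given in the sources used here.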
